A study of Mus musculus with 60 samples.

Results

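Visceral fat was set against subcutaneous fat in mice that ate a control chow and carried an induced NaKtide transgene. The 10 libraries were those labelled control diet with NaKtide, 5 from visceral and 5 from subcutaneous adipose tissue, out of 60 libraries in the series. The chow was 11% fat with 62% of carbohydrate and 27.0% of protein, was fed for 12 weeks, and contained 300 mg/kg doxycycline, which switches the transgene on. NaKtide, a peptide with sequence of the Na,K-ATPase, blocks the pump's activation of the kinase Src. Both depots carried it, so the comparison describes the depot under NaKtide and not the peptide's effect. The labels used here give no strain, age, sex, transgene promoter or named visceral pad, and do not say whether 1 mouse gave both depots. Whether mice without NaKtide also ate doxycycline was not given, and the transgene was not in the table, so its presence was not checked. The series' design text speaks of 5 mice per group, and p-values measure the spread between these samples.

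Fat depots differ in where they arise and in which cells they hold. Visceral fat lies inside the abdominal cavity under a sheet of mesothelial cells, which express Wt1 and secrete a lubricating fluid. Subcutaneous fat lies under the skin next to the body-wall muscle, and its precursors keep an expression code of developmental regulators such as Tbx15, Shox2, En1 and the Hox genes. Macrophages gather in fat when adipocytes are stressed or die, and there take up lipid and express Trem2 and Gpnmb.

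Messenger RNA was sequenced as pairs of 50 bp reads, and levels are given as CPM, counts per gene scaled to library size with TMM factors. Depth was 6.29 to 7.81 M counts in the visceral libraries and 3.49 to 6.82 M in the subcutaneous libraries. Differences are log2 of visceral over subcutaneous ± standard error from edgeR's quasi-likelihood test, with p-values adjusted by Benjamini-Hochberg over 17788 genes. A gene is called changed, higher or lower when its adjusted p is under 0.05. All 10 libraries carried the markers of the depot on their label, but 2 of them also held much RNA of another tissue. The summed level of 20 skeletal muscle genes was 303500 CPM in subcutaneous replicate 2, and the same sum was 12360, 132, 3942 and 21200 CPM in subcutaneous replicates 1, 3, 4 and 5. In the visceral libraries it was 58.7 to 97.7 CPM. Subcutaneous replicate 2 had a TMM factor of 0.431, against 0.951 to 1.01 in the other subcutaneous libraries. Its CPM are therefore higher than its shares of counts. Genes of the male reproductive tract (28 genes of epididymis and sperm) summed to 8110 CPM in visceral replicate 1 and to 6.34 to 182 CPM in the other visceral libraries, against 0 to 4.67 CPM in the subcutaneous ones. Counts of calls by gene list are therefore given also from a reduced fit, without visceral replicate 1 and subcutaneous replicate 2. In whole tissue, fewer cells of a type and less RNA per cell cannot be told apart.

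**Figure D1:**
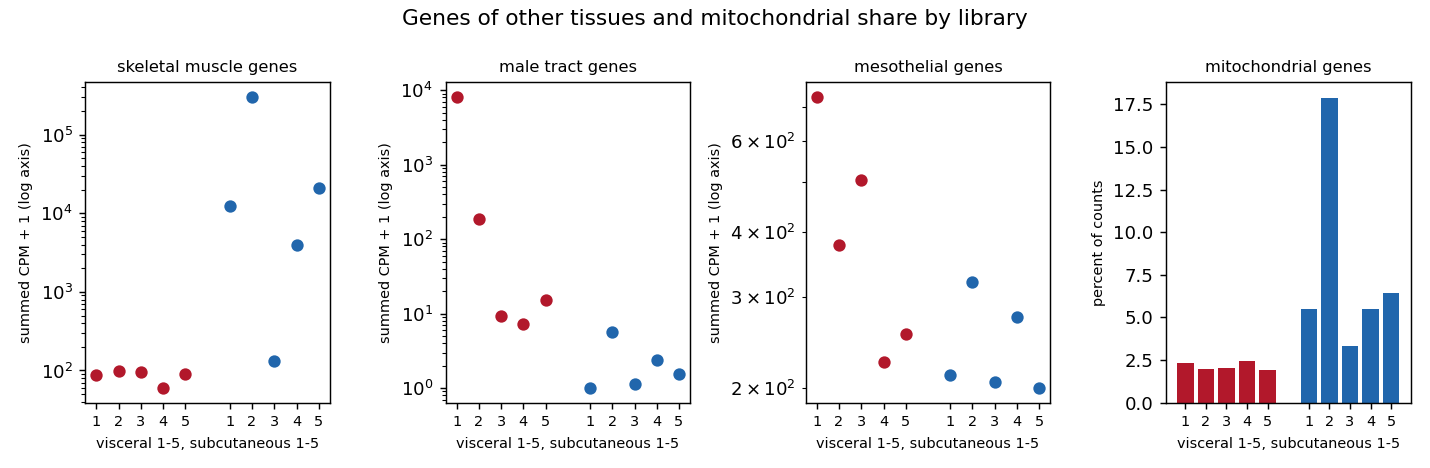
Summed CPM + 1 of skeletal muscle, male tract and mesothelial genes (log axes) and the percent of counts on mitochondrial genes (linear axis from 0), by library, with visceral replicates 1 to 5 in red at the left and subcutaneous replicates 1 to 5 in blue at the right. Subcutaneous replicate 2 reaches 303500 CPM of muscle genes and visceral replicate 1 reaches 8110 CPM of tract genes.

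With all 10 libraries 2575 genes differed between the depots, 14.5% of those tested. Of these, 1072 (6.03%) were higher and 1503 (8.45%) lower in visceral fat. This balance turned in other fits, with 1975 higher and 1753 lower in DESeq2 and 987 higher and 535 lower from the 10 libraries alone. In the reduced fit 1014 of 17986 genes were called (5.64%), 502 higher (2.79%) and 512 lower (2.85%) in visceral fat. It kept 467 of the 1072 higher calls and 474 of the 1503 lower calls. Leaving out subcutaneous replicate 2 alone left 1279 calls. A fit chosen after seeing the data, without visceral replicate 1 and the 3 subcutaneous libraries above 10000 CPM of muscle genes, set 4 libraries against 2 and called 7 genes, with 1539 at an unadjusted p under 0.05. All 7 were lower in visceral fat, namely Cyp2f2, Gsta4, Net1, Shox2, Sqor, Ripk4 and Gm13111. CPM of all 5 visceral libraries lay above all 5 subcutaneous ones for 1129 genes (6.35%) and below them for 863 (4.85%).

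Among the regulators that mark where a depot arose, most called genes were lower in visceral fat. Of 36 tested patterning genes, 3 (8.33%) were higher and 9 (25%) lower in visceral fat, against 6.03% and 8.45% of all genes. Their median log2 difference was -0.75, against 0.03 over all genes tested. The reduced fit called 2 higher and 10 lower. Promoters of 4 depot markers are shown because these genes separated the depots in opposite directions. Shox2 and En1 were the subcutaneous ones, and Tcf21 and Upk3b the visceral ones. Each is 300 bases of RefSeq sequence in build GRCm38.p6, from 250 bases before to 50 after the start of the gene and on the gene's strand. Capitals mark matches to 3 motifs on either strand. One is GGGCGG, which is known as the GC box. Another is TATAAA, which is the core of the TATA box. The last is CCAAT, the box bound by nuclear factor Y. Reverse complements of these letters count as matches, and no matches overlapped.
Shox2 (chr3:66981722-66982021, minus strand): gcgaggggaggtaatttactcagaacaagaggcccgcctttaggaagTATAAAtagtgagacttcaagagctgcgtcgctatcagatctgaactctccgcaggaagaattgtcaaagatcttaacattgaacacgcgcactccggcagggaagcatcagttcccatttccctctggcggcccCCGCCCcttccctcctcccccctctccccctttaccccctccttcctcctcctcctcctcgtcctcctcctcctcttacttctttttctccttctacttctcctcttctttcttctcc
En1 (chr1:120602237-120602536, plus strand): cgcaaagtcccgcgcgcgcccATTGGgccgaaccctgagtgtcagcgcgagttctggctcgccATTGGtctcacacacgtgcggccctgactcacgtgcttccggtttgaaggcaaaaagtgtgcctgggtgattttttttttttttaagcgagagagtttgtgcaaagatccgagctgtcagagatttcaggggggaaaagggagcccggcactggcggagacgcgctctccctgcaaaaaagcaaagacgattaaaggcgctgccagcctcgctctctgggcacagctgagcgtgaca
Tcf21 (chr10:22820094-22820393, minus strand): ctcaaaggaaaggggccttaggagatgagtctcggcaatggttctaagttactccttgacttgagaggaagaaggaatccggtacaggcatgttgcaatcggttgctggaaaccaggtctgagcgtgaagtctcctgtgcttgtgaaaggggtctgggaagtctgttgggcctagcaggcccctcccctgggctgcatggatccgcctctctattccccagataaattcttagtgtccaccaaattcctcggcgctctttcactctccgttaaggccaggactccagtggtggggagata
Upk3b (chr5:136038246-136038545, plus strand): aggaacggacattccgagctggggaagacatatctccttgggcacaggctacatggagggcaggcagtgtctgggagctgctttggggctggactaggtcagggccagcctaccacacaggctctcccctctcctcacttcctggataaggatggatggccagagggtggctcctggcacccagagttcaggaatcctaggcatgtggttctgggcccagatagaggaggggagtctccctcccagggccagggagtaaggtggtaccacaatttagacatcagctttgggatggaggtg
The Shox2 window held 1 GC box and 1 TATAAA, and the En1 window held 2 CCAAT matches. None of these letters occurred in the Tcf21 and Upk3b windows. Over all 32851 windows in the table, 35.7% held a GC box, 13.6% TATAAA and 37.4% CCAAT, so each match is a description of the window only.

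Wt1 (chr2:105126529-105173616, plus strand, GENCODE M21 on GRCm38), a transcription factor of mesothelium and of visceral fat progenitors, was read at 7.73, 4.46, 5.58, 3.05 and 2.36 CPM in visceral replicates 1 to 5 and at 0 in all 5 subcutaneous libraries. With 184 visceral counts against a floor of 3 counts over the subcutaneous group, Wt1 was at least 40.4-fold higher in visceral fat (edgeR adjusted p = 0.0163). In the reduced fit Wt1 missed the threshold at an adjusted p of 0.0579, with the remaining visceral libraries at the levels above and the subcutaneous ones at 0. Tcf21, a regulator of mesenchymal progenitors, had 4.04, 4.82, 4.70, 1.10 and 3.86 CPM in the visceral libraries and 0 in every subcutaneous library. It was at least 32.1-fold higher in visceral fat (edgeR adjusted p = 0.00436, and 0.0191 in the reduced fit). Bnc1, a zinc finger protein of mesothelium, was likewise absent from the subcutaneous counts and was at least 14.1-fold higher in visceral fat (edgeR adjusted p = 0.00915).

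Tbx15 (chr3:99240381-99354259, plus strand), a T-box factor of subcutaneous precursors and of muscle, was all but silent in visceral fat, at 0.238, 0.121, 0, 0 and 0.249 CPM, against 24.4, 307, 16.3, 30.8 and 40.7 CPM in subcutaneous fat. It fell by 9.18 ± 1.51 on the log2 scale (edgeR adjusted p = 0.000359). The highest value, 307 CPM, came from the muscle-rich subcutaneous replicate 2, and in the reduced fit the difference was -7.97 on the log2 scale (adjusted p = 0.00555). Shox2, a homeobox factor, had 0, 0.362, 0.147, 0.122 and 0.249 CPM in visceral fat and 14.0, 4.67, 21.6, 16.1 and 9.12 CPM in subcutaneous fat. Its log2 difference was -6.10 ± 0.99 (edgeR adjusted p = 0.000359), and here the muscle-rich library was the lowest of its group, not the highest. En1, a homeobox factor of the embryonic body wall, was at most 0.366 CPM in visceral fat and 1.33 to 6.70 CPM in subcutaneous fat, a log2 difference of -4.32 ± 1.06 (edgeR adjusted p = 0.00598).

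Of 16 Hox genes tested, which record position along the body axis, 4 were lower and 0 higher in visceral fat, also in the reduced fit. Among the others Hoxb6 and Hoxb8 had log2 differences of 1.83 and 1.41 (edgeR adjusted p = 0.221 and 0.286), and Hoxc6 had 0.04. Hoxa10 had 0.238 CPM in visceral replicate 1 and 0 in the other visceral libraries, against 22.1, 12.7, 27.5, 12.3 and 5.61 CPM in subcutaneous fat. Over each group the counts were 2 in visceral and 451 in subcutaneous fat, so that Hoxa10 was lower in visceral fat by a ratio of 342 with a counting interval of 94.2 to 2840 (edgeR adjusted p = 0.000539). Hoxc10 was 0.122 to 0.362 CPM in visceral fat against 24.8, 3.34, 48.5, 31.7 and 9.82 CPM in subcutaneous fat, a log2 difference of -6.35 ± 1.22 (edgeR adjusted p = 0.000796). Hoxa9 was 0.122 to 0.595 CPM in visceral fat and 7.19 to 15.0 CPM in subcutaneous fat. Hoxa7 differed less, at 5.97 to 7.78 CPM in visceral fat and 12.7 to 33.4 CPM in subcutaneous fat, a log2 difference of -1.79 ± 0.36 (edgeR adjusted p = 0.00119). None of the 4 lower Hox genes overlapped between the depots. Over all genes 8.45% were lower, and 4.85% lay without overlap below the subcutaneous libraries. Gata6, a zinc finger factor often used as a visceral marker, was not called, with 2.49 to 6.17 CPM in visceral fat and 1.33 to 11.6 CPM in subcutaneous fat (log2 difference -0.60 ± 0.49, edgeR adjusted p = 0.414), although voom called it lower (adjusted p = 0.0294).

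**Figure D2:**
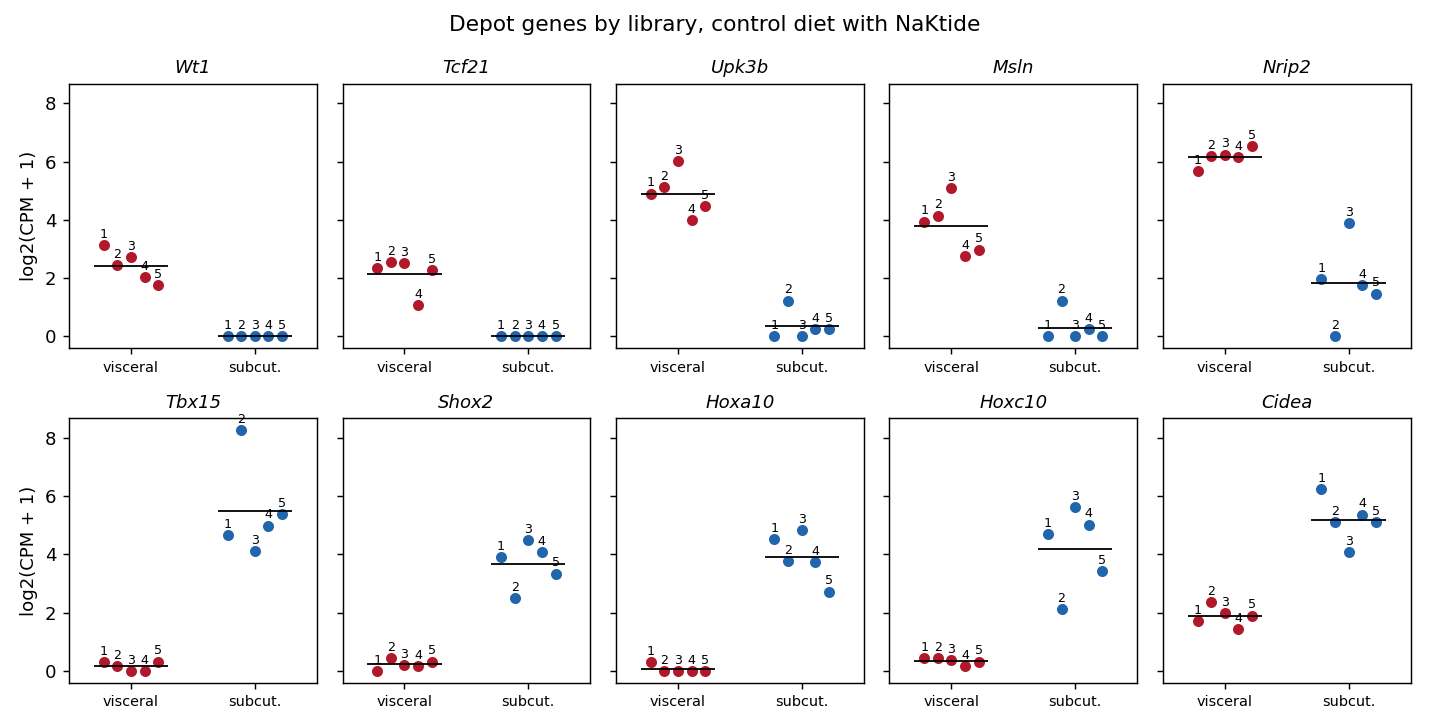
Levels of 10 depot genes as log2(CPM + 1), in visceral (red, left) and subcutaneous (blue, right) libraries of the control diet with NaKtide; each point is 1 library numbered by replicate and the line is the group mean. For each of the 10 genes shown the 5 visceral libraries lie wholly on one side of the 5 subcutaneous ones.

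Mesothelial genes were mostly higher in visceral fat. Of 20 tested, 12 (60%) were higher and 0 lower, against 6.03% and 8.45% of all genes. Their median log2 difference was 3.89 (3.76 with genes absent from subcutaneous counts at their lower bound). The reduced fit called 10 higher. Of the members not called, Cldn15, Igfbp6 and Bcam had log2 differences of -0.93, -0.3 and -0.03 (edgeR adjusted p = 0.159, 0.552 and 0.941). Krt7, Krt8 and Krt18, also not called, had 2.8, 4.06 and 2.64 (edgeR adjusted p = 0.153, 0.1 and 0.261). Upk3b, a uroplakin of mesothelial surfaces, had 28.8, 33.5, 63.7, 14.9 and 21.1 CPM in visceral fat and 0, 1.33, 0, 0.171 and 0.175 CPM in subcutaneous fat. Its log2 difference was 7.47 ± 1.60 (edgeR adjusted p = 0.00195). Msln, the mesothelial surface protein mesothelin, had 5.73 to 33.2 CPM in visceral fat and at most 1.33 CPM in subcutaneous fat, a ratio of 129 with a counting interval of 43.8 to 626 (edgeR adjusted p = 0.00483). Slpi, a secreted protease inhibitor, reached 48.9, 55.1, 62.5, 19.6 and 36.0 CPM in visceral fat and 0.175 to 0.685 CPM in subcutaneous fat (log2 difference 6.77 ± 1.38, edgeR adjusted p = 0.00131). Aldh1a2, which makes retinoic acid, was 8.81 to 28.7 CPM in visceral fat and 1.23 to 3.34 CPM in subcutaneous fat (log2 difference 2.96 ± 0.62, edgeR adjusted p = 0.00165). The sum over all 20 mesothelial genes overlapped between the depots, at 223 to 731 CPM in visceral fat and 199 to 319 CPM in subcutaneous fat.

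Several genes outside these lists ranked among the largest differences called in both fits. Nrip2 (chr6:128399296-128416427, plus strand), a nuclear receptor interacting protein, shared the lowest adjusted p of all genes with the predicted gene Gm44386. It read 50.4, 71.6, 74.4, 70.1 and 92.2 CPM in visceral fat and 2.87, 0, 13.8, 2.40 and 1.75 CPM in subcutaneous fat (log2 difference 4.01 ± 0.57, edgeR adjusted p = 0.000294). Its annotated span overlaps other genes on both strands. Gpr50, an orphan receptor related to melatonin receptors, was 22.5 to 56.3 CPM in visceral fat and 0 to 3.93 CPM in subcutaneous fat. Col6a5, a collagen VI chain, was 19.3 to 93.3 CPM in visceral fat and 0 to 2.67 CPM in subcutaneous fat (log2 difference 6.10 ± 1.42, edgeR adjusted p = 0.00396).

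Macrophage genes were higher in visceral fat as a group. Of 23 tested, 13 (56.5%) were higher and 0 lower, against 6.03% and 8.45% of all genes, and the median log2 difference was 1.32. The same 13 were higher in the reduced fit, where 2.79% of all genes were. Summed over the list the level was 3380 to 4800 CPM in visceral fat and 1070 to 1970 CPM in subcutaneous fat. Trem2 (chr17:48346401-48354147, plus strand), a lipid-sensing receptor of macrophages, had 124, 186, 102, 148 and 99.4 CPM in visceral fat and 8.60, 8.67, 20.1, 3.6 and 5.26 CPM in subcutaneous fat. Its log2 difference was 3.82 ± 0.83 (edgeR adjusted p = 0.00216). Gpnmb, a glycoprotein of lipid-loaded macrophages, had 244, 353, 247, 487 and 215 CPM in visceral fat and 14.3, 19.4, 45.3, 19.0 and 13.7 CPM in subcutaneous fat (log2 difference 3.78 ± 0.86, edgeR adjusted p = 0.00312). For both genes every visceral library lay above every subcutaneous one, and subcutaneous replicate 3 was the highest of its group.

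Of the macrophage genes not called, Cd14 had a log2 difference of 0.15 and Cd163, Timd4 and Lyve1 had -0.59, -0.71 and -0.67 (edgeR adjusted p = 0.842, 0.434, 0.493 and 0.489). Among the 13 called genes, Mpeg1, a pore-forming protein of phagocytes, was 141 to 275 CPM in visceral fat and 25.7 to 80.6 CPM in subcutaneous fat (log2 difference 2.16 ± 0.44, edgeR adjusted p = 0.00121). Ms4a7, a macrophage membrane protein, was 15.8 to 33.4 CPM in visceral fat and 4.00 to 8.60 CPM in subcutaneous fat (log2 difference 2.05 ± 0.39, edgeR adjusted p = 0.000796). Adam8, Slc37a2 and Rgs1 are outside the list and were among the largest rises called in both fits. Adam8, a metalloprotease of leukocytes, had 48.2, 82.5, 47.9, 109 and 52.6 CPM in visceral fat and 1.91, 2.67, 6.99, 1.03 and 1.05 CPM in subcutaneous fat (log2 difference 4.61 ± 1.00, edgeR adjusted p = 0.00213). Slc37a2, a sugar phosphate transporter of macrophages, was 37.9 to 91.7 CPM in visceral fat and 2.40 to 10.5 CPM in subcutaneous fat. Rgs1, a regulator of G-protein signalling in leukocytes, was 10.1 to 15.1 CPM in visceral fat and 0.342 to 2.04 CPM in subcutaneous fat.

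Antigen presentation, chemokine and complement genes were called in part. Of 12 MHC class II genes 4 (33.3%) were higher in visceral fat (2 in the reduced fit). Of 20 chemokine and acute-phase genes 6 (30%) were higher and 1 (5%) lower (2 and 1). Of 22 complement genes 3 (13.6%) were higher and 1 (4.55%) lower (2 and 1). Over all genes 6.03% were higher and 8.45% lower. Ctss, the protease that trims the invariant chain, was 172 to 297 CPM in visceral fat and 22.9 to 83 CPM in subcutaneous fat (log2 difference 2.42 ± 0.57, edgeR adjusted p = 0.00398). C3ar1, the receptor of a complement fragment, was 33.8 to 65.8 CPM in visceral fat and 6.21 to 15.2 CPM in subcutaneous fat (log2 difference 2.23 ± 0.50, edgeR adjusted p = 0.00308). H2-DMb1, a peptide loader of MHC class II with a near-identical paralog, overlapped between depots because subcutaneous replicate 3 read 125 CPM (log2 difference 1.66 ± 0.42, edgeR adjusted p = 0.00768). Cxcl14, a chemokine, ran the other way, at 18.7, 11.1, 7.93, 31.2 and 12.8 CPM in visceral fat and 93.5, 50, 115, 99.6 and 54.5 CPM in subcutaneous fat (log2 difference -2.34 ± 0.57, edgeR adjusted p = 0.00571). Il7r, the interleukin receptor of lymphocytes, was 4.52 to 12.7 CPM in visceral fat and 0 to 1.31 CPM in subcutaneous fat (log2 difference 3.74 ± 1.00, edgeR adjusted p = 0.0113).

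The calls of Ccl2, Saa3 and C3 were lost when any of several single libraries was left out, while the log2 differences stayed at 2.33 to 2.43, 2.99 to 3.07 and 1.17 to 1.29. Ccl2, a monocyte chemokine, was 15.2 to 53.4 CPM in visceral fat and 1.03 to 15.4 CPM in subcutaneous fat (log2 difference 2.60 ± 0.76, edgeR adjusted p = 0.0185); the adjusted p was 0.0517, 0.0540 and 0.0582 without subcutaneous replicates 1, 4 and 5. Saa3, an acute-phase protein with close paralogs, was 125 to 232 CPM in visceral fat and 0.171 to 82.2 CPM in subcutaneous fat (log2 difference 3.31 ± 1.01, edgeR adjusted p = 0.0250). Its adjusted p was 0.0651, 0.0729, 0.0543 and 0.0640 without subcutaneous replicates 1, 2, 4 and 5. C3, the central complement protein, was 798 to 1950 CPM in visceral fat and 289 to 765 CPM in subcutaneous fat (log2 difference 1.34 ± 0.38, edgeR adjusted p = 0.0171). Its adjusted p was 0.0550, 0.0539 and 0.0546 without visceral replicate 4 and subcutaneous replicates 1 and 2.

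**Figure D3:**
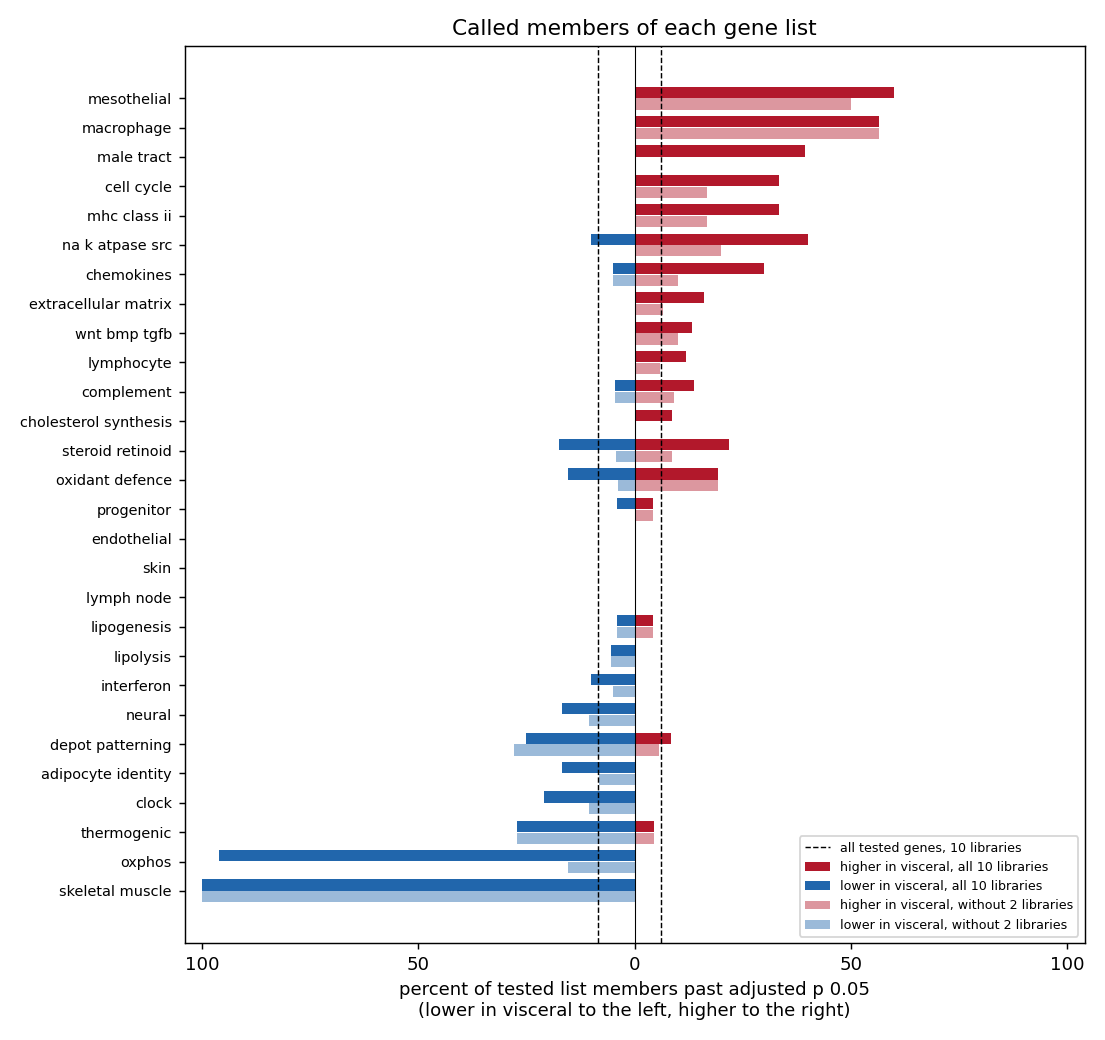
Percent of tested members of each gene list past an adjusted p of 0.05, higher in visceral fat to the right in red and lower to the left in blue, with all 10 libraries (dark) and without visceral replicate 1 and subcutaneous replicate 2 (pale); dashed lines mark the shares over all tested genes, 6.03% and 8.45%. Mesothelial (12 of 20) and macrophage (13 of 23) genes are at the top, and skeletal muscle (20 of 20) and oxidative phosphorylation genes (25 of 26) at the bottom.

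The genes closest to the study's theme, the Na,K-ATPase and its Src signalling partners, split by member. Of 20 tested, 8 (40%) were higher and 2 (10%) lower in visceral fat, against 6.03% and 8.45% of all genes. The reduced fit called 4 higher and 0 lower. Src itself had 25.9, 24.0, 26.9, 23.9 and 20.8 CPM in visceral fat and 15.8, 6.67, 21.3, 12.8 and 11.6 CPM in subcutaneous fat (log2 difference 0.81 ± 0.26, edgeR adjusted p = 0.0354). The Src call was lost without any 1 of 6 libraries, with log2 differences of 0.67 to 0.84 and adjusted p between 0.0527 and 0.110, namely visceral replicates 1, 3 and 4 and subcutaneous replicates 2, 4 and 5. Fgr, a Src-family kinase of myeloid cells, was higher in both fits. It was 5.11 to 8.83 CPM in visceral fat and 0.667 to 2.91 CPM in subcutaneous fat (log2 difference 2.39 ± 0.49, edgeR adjusted p = 0.00143). The 2 lower members, the pump's beta subunit Atp1b2 and its regulator Fxyd1, are expressed in muscle, and each call rested on subcutaneous replicate 2. Atp1b2 read 328 CPM in that library and 7.14 to 16.7 CPM in the other subcutaneous ones, and its log2 difference was -0.58 without it (adjusted p = 0.532). Fxyd1 read 1280 CPM there and 139 to 249 CPM in the others, and its log2 difference was -0.88 without it (adjusted p = 0.122).

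Oxidant genes also split. Of 26 tested, 5 (19.2%) were higher and 4 (15.4%) lower in visceral fat, against 6.03% and 8.45% of all genes. The reduced fit called 5 higher and 1 lower. The higher ones included 3 subunits of the phagocyte NADPH oxidase, which makes superoxide. Cybb, its catalytic subunit, had 32.4, 48.2, 42.0, 71.5 and 48.4 CPM in visceral fat and 12.7, 12.7, 23.5, 12.7 and 11.6 CPM in subcutaneous fat (log2 difference 1.72 ± 0.42, edgeR adjusted p = 0.00580). Ncf1, a cytosolic subunit, was 27.1 to 43.8 CPM in visceral fat and 7.80 to 14.3 CPM in subcutaneous fat (log2 difference 1.78 ± 0.38, edgeR adjusted p = 0.00187). Cyba, the partner of Cybb in the membrane, was 126 to 192 CPM in visceral fat and 38 to 61.8 CPM in subcutaneous fat (log2 difference 1.60 ± 0.37, edgeR adjusted p = 0.00374). Gsta4, which detoxifies lipid aldehydes, was lower in visceral fat, at 21.6, 6.15, 10.3, 3.29 and 7.09 CPM, against 57.5, 24.0, 17.6, 47.1 and 40.5 CPM in subcutaneous fat (log2 difference -1.95 ± 0.37, edgeR adjusted p = 0.000788). These NADPH oxidase genes are expressed by macrophages, and the macrophage sum given above differed between the depots in the same libraries; its part in the result was not tested.

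Of 24 adipocyte identity genes 0 were higher and 4 (16.7%) lower in visceral fat (2 lower in the reduced fit), with a median log2 difference of -0.31. Over all genes 6.03% were higher and 8.45% lower. The list summed to 17800 to 32100 CPM in visceral fat and 19400 to 44700 CPM in subcutaneous fat, the lowest subcutaneous value being that of the muscle-rich replicate 2. Adipoq, the adipocyte hormone adiponectin, was 1100 to 1890 CPM in visceral fat and 832 to 3180 CPM in subcutaneous fat (log2 difference -0.65 ± 0.44, edgeR adjusted p = 0.312). Lep, the hormone leptin, was 1970 to 4120 CPM in visceral fat and 218 to 3730 CPM in subcutaneous fat (log2 difference 0.86 ± 0.63, edgeR adjusted p = 0.355). Pparg, the master regulator of adipocytes, and Retn, the hormone resistin, did not pass the test either (log2 differences -0.40 ± 0.49 and -0.99 ± 0.45). With limma voom and quality weights, which give less weight to libraries that stand apart, Lep was called higher (log2 difference 1.10, adjusted p = 0.0181) and Adipoq and Retn lower (adjusted p = 0.00811 and 0.000144). A p that misses the threshold in edgeR thus does not show that these levels are alike.

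Cfd and Pck1 were the adipocyte genes lower in both fits. Cfd, which encodes adipsin of the complement pathway, had 957, 1270, 1140, 1060 and 964 CPM in visceral fat and 4930, 2810, 2690, 8205 and 7360 CPM in subcutaneous fat (log2 difference -2.27 ± 0.46, edgeR adjusted p = 0.00130). Pck1, the enzyme of glycerol synthesis for fat storage, was 179 to 384 CPM in visceral fat and 715 to 2490 CPM in subcutaneous fat (log2 difference -2.35 ± 0.63, edgeR adjusted p = 0.0116). Of the 24 lipogenesis genes 1 was higher and 1 lower (4.17% each). Of 18 lipolysis genes 1 was lower (5.56%). The counts for both lists were the same in the reduced fit. Over all genes 6.03% were higher and 8.45% lower in visceral fat. Acacb, a carboxylase that restrains mitochondrial fat oxidation, overlapped between depots at 14.2 to 27.2 CPM in visceral fat and 17.5 to 302 CPM in subcutaneous fat (log2 difference -3.05 ± 0.65, edgeR adjusted p = 0.00200). Plin5, a lipid droplet protein that tethers mitochondria, was 5.12 to 7.20 CPM in visceral fat and 12.5 to 45.6 CPM in subcutaneous fat (log2 difference -2.18 ± 0.41, edgeR adjusted p = 0.000676).

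Of 22 thermogenic genes 1 (4.55%) was higher and 6 (27.3%) lower in visceral fat in each fit. Over all genes 6.03% were higher and 8.45% lower, and 2.79% and 2.85% in the reduced fit. Cidea, a lipid droplet protein of brown and beige adipocytes, had 2.26, 4.10, 2.94, 1.71 and 2.74 CPM in visceral fat and 74.7, 33.4, 16, 40.4 and 33.5 CPM in subcutaneous fat (log2 difference -3.84 ± 0.71, edgeR adjusted p = 0.000653). Ucp1, the uncoupling protein of those cells, was near the detection limit, at 0.121 to 0.497 CPM in visceral fat and at 4.46, 0, 0, 0 and 0.175 CPM in subcutaneous fat (log2 difference -1.72 ± 1.45, edgeR adjusted p = 0.429). Its sign rested on subcutaneous replicate 1, without which the log2 difference was 2.23. Cox7a1 and Ckmt2, both also muscle genes, overlapped between depots, because subcutaneous replicate 3, with the least muscle RNA, read 6.26 CPM of Cox7a1 and 0.291 CPM of Ckmt2. In subcutaneous replicate 2 they read 1030 and 1520 CPM. Ckb, a creatine kinase, was the gene that was higher, at 142 to 174 CPM in visceral fat and 46.7 to 76.3 CPM in subcutaneous fat (log2 difference 1.36 ± 0.27, edgeR adjusted p = 0.00106).

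Nuclear genes of oxidative phosphorylation were lower in visceral fat in 25 of 26 cases, with a median log2 difference of -1.16. In the reduced fit 4 were called lower and the median was -0.65. Over all genes 8.45% were lower, and 2.85% in the reduced fit. Uqcrc2, a core subunit of respiratory complex III, had 82.2, 114, 104, 99.0 and 106 CPM in visceral fat and 264, 254, 184, 189 and 210 CPM in subcutaneous fat (log2 difference -1.12 ± 0.19, edgeR adjusted p = 0.000369). Sdhb, a subunit of succinate dehydrogenase, was 106 to 148 CPM in visceral fat and 187 to 779 CPM in subcutaneous fat, and Uqcrfs1, the Rieske protein, was 102 to 148 CPM in visceral fat and 201 to 625 CPM in subcutaneous fat. For these 3 genes the depots did not overlap, subcutaneous replicate 3 included. Counts on mitochondrial genes were 1.91 to 2.46% of the total in visceral fat and 3.34 to 17.9% in subcutaneous fat, again highest in subcutaneous replicate 2. Sdhb and Uqcrfs1 were likewise highest in that library, which held the most muscle RNA. Uqcrc2 was highest in subcutaneous replicate 1, where the muscle genes summed to 12360 CPM. In the reduced fit the log2 differences of Uqcrc2, Sdhb and Uqcrfs1 were -1.01, -0.93 and -0.88 (edgeR adjusted p = 0.00555, 0.0209 and 0.0241). The part of muscle RNA in these calls was not tested.

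All 20 skeletal muscle genes were lower in visceral fat in both fits, and their median log2 difference was -10.79, also with genes absent from one depot at their bound. Pygm, the muscle glycogen phosphorylase, had 3.57, 3.01, 4.26, 2.56 and 3.48 CPM in visceral fat and 354, 13900, 3.93, 112 and 645 CPM in subcutaneous fat (log2 difference -9.79 ± 1.53, edgeR adjusted p = 0.000343). In the reduced fit the Pygm difference was -6.40. Subcutaneous replicate 3 lay within the visceral range for Pygm, and below it for Ryr1, the calcium release channel of muscle, at 1.46 CPM against 2.06 to 3.92 CPM in visceral fat. Outside the muscle list, the 12 largest falls called in both fits among genes averaging 5 CPM or more without overlap were, apart from Tbx15, mostly further muscle genes, among them Mybpc2, Myot and Csrp3, which encode sarcomere proteins. Conversely, 11 of 28 male tract genes (39.3%) were higher in visceral fat, against 6.03% of all genes, and 0 in the reduced fit. Lcn5, an epididymal lipocalin, had 1310, 102, 3.23, 3.05 and 3.73 CPM in visceral fat and no count in subcutaneous fat, and its adjusted p was 0.0707 without visceral replicate 1. Adam7, an epididymal protease homologue, read 974 CPM in visceral replicate 1 and 0.488 to 27.7 CPM in the other visceral libraries, against at most 0.171 CPM in subcutaneous fat. Its adjusted p was 0.151 without visceral replicate 1.

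Genes lower in visceral fat were also read in the subcutaneous library with the least muscle RNA, a choice made after the values were seen. Of the genes lower in visceral fat in both fits and in all 5 libraries, 156 kept at least 5 CPM in subcutaneous replicate 3, among them genes that muscle also expresses, such as Cmya5 at 11.9 CPM. By this rule replicate 3 had to lie above every visceral library, so its order is not a test. Its ratio to the highest visceral library ran from 134 for Hoxc10 to 1.01 for Rdm1. Net1, a guanine nucleotide exchange factor, had 35.3, 23.1, 21.1, 24.1 and 15.7 CPM in visceral fat and 231, 124, 141, 266 and 261 CPM in subcutaneous fat (log2 difference -3.10 ± 0.48, edgeR adjusted p = 0.000343). Cyp2f2, a cytochrome P450, was 1.76 to 4.48 CPM in visceral fat and 6.67 to 230 CPM in subcutaneous fat (log2 difference -4.67 ± 0.76, edgeR adjusted p = 0.000359). Ces1f, a carboxylesterase with close paralogs, was 14.5 to 24.1 CPM in visceral fat and 52.0 to 419 CPM in subcutaneous fat. Dpt, the matrix protein dermatopontin, had 251, 421, 323, 342 and 313 CPM in visceral fat and 1870, 481, 2080, 1340 and 1290 CPM in subcutaneous fat (log2 difference -2.10 ± 0.54, edgeR adjusted p = 0.00813). Grb14, an adaptor that inhibits the insulin receptor, was 19.0 to 40.2 CPM in visceral fat and 77.4 to 192 CPM in subcutaneous fat (log2 difference -2.04 ± 0.46, edgeR adjusted p = 0.00293). Nat8l, which makes N-acetylaspartate, was 15.3 to 33.9 CPM in visceral fat and 56.7 to 233 CPM in subcutaneous fat (log2 difference -2.53 ± 0.64, edgeR adjusted p = 0.00701).

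**Figure D4:**
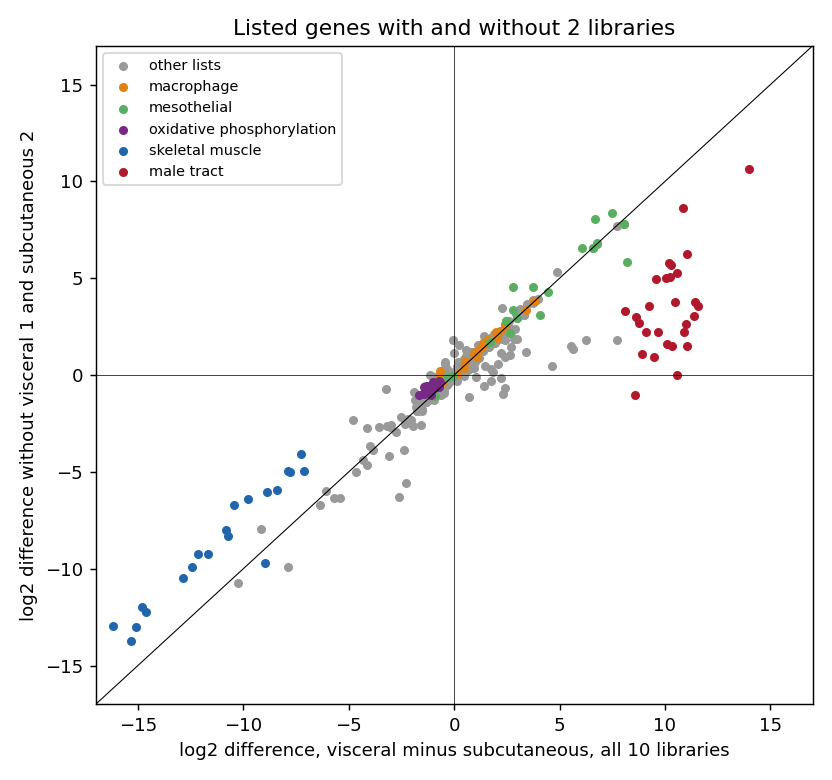
Log2 difference of visceral over subcutaneous fat for each tested member of the gene lists, with all 10 libraries (x axis) and without visceral replicate 1 and subcutaneous replicate 2 (y axis); the diagonal marks equal values. Male tract genes (red) lose most of their difference and muscle genes (blue) keep it below 0, while macrophage and mesothelial genes stay near the diagonal.

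All called matrix and signalling genes were higher in visceral fat. Of 31 matrix genes 5 (16.1%) were higher (2 in the reduced fit), and of 30 genes of the Wnt, BMP and TGF-beta pathways 4 (13.3%) were higher (3). Over all genes 6.03% were higher, and 2.79% in the reduced fit. Fmod, the collagen-binding fibromodulin, had 32.6, 29.8, 33.2, 12.3 and 12.3 CPM in visceral fat and 5.25, 1.33, 4.81, 4.11 and 2.28 CPM in subcutaneous fat (log2 difference 2.68 ± 0.53, edgeR adjusted p = 0.000963). Col6a1, a collagen VI chain, was 499 to 1050 CPM in visceral fat and 137 to 655 CPM in subcutaneous fat (log2 difference 1.57 ± 0.48, edgeR adjusted p = 0.0245). The Col6a1 call was lost without visceral replicate 4 or any of subcutaneous replicates 1, 2, 4 and 5, with log2 differences of 1.41 to 1.51 and adjusted p between 0.0509 and 0.0831. Nog, an antagonist of BMPs, was 6.66 to 18.9 CPM in visceral fat and 0.159 to 4.37 CPM in subcutaneous fat (log2 difference 3.12 ± 0.87, edgeR adjusted p = 0.0149). Tgfb1, a growth factor of fibrosis and immune control, was 80.0 to 103 CPM in visceral fat and 22 to 58.3 CPM in subcutaneous fat (log2 difference 1.14 ± 0.25, edgeR adjusted p = 0.00243). Rspo1, a Wnt agonist of mesothelium, was 4.23 to 23.5 CPM in visceral fat and 1.02 to 4.67 CPM in subcutaneous fat (log2 difference 2.48 ± 0.66, edgeR adjusted p = 0.0102).

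Cell cycle genes that were called were higher in visceral fat, and clock and neural genes that were called were lower. Of 18 cell cycle genes 6 (33.3%) were higher (3 in the reduced fit); Mcm5, a subunit of the replicative helicase, was 8.81 to 18.9 CPM in visceral fat and 2.00 to 8.60 CPM in subcutaneous fat (log2 difference 1.71 ± 0.34, edgeR adjusted p = 0.00101). Of 19 clock genes 4 (21.1%) were lower (2). Of 23 steroid and retinoid genes 5 (21.7%) were higher and 4 (17.4%) lower (2 and 1). Ptgis, prostacyclin synthase, was 13.3 to 24.4 CPM in visceral fat and 2.63 to 3.98 CPM in subcutaneous fat (log2 difference 2.55 ± 0.55, edgeR adjusted p = 0.00218). Cyp2e1, an ethanol-oxidising P450, was 47.8 to 282 CPM in visceral fat and 300 to 2065 CPM in subcutaneous fat (log2 difference -2.74 ± 0.72, edgeR adjusted p = 0.00988). Among 18 neural genes 3 (16.7%) were lower (2). Sox10, a regulator of Schwann cells, had 1 count over the visceral group and 40 over the subcutaneous group. That was a ratio of 60.7 with a counting interval of 10.3 to 2460 (edgeR adjusted p = 0.00240). Ifi27l2a, an interferon-induced gene, was 289 to 583 CPM in visceral fat and 994 to 2620 CPM in subcutaneous fat. Of 20 interferon genes 2 (10%) were lower (1 in the reduced fit), near the 8.45% of all genes. Of 17 lymphocyte genes 2 (11.8%) were higher (1), and of 23 cholesterol genes 2 (8.7%) were higher (0). Of 24 progenitor genes 1 was higher and 1 lower (4.17% each, and 1 and 0 in the reduced fit). Over all genes 6.03% were higher and 8.45% lower. Of 21 endothelial, 15 lymph node, 9 skin, 3 mammary gland and 3 pancreas and gut genes 0 were called.

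The same depot difference was read in mice on control diet without NaKtide, and the difference between both was tested as an interaction. It was called for 449 genes, 2.52% of 17788, of which 358 were positive (2.01%) and 91 negative (0.512%). The reduced fit called 990 genes, 590 positive and 400 negative. The 5 positive genes with the smallest p were Btk, Fermt3, Lrrc25, Myo1f and P2ry6, which are expressed in myeloid cells. Of the 23 macrophage genes 15 had a positive interaction (17 in the reduced fit). Trem2 in control-diet visceral fat without NaKtide was 3.96 to 11.9 CPM with a median of 5.74, and in subcutaneous fat without NaKtide it was 1.15 to 75.5 CPM with a median of 3.61. With the NaKtide values above, its interaction was 5.33 on the log2 scale (edgeR adjusted p = 0.00729). Myo1f, an unconventional myosin of neutrophils and macrophages, had 52.0, 79.7, 59.3, 96.3 and 55.1 CPM in visceral fat and 5.34 to 14.4 CPM in subcutaneous fat with NaKtide, and 2.04 to 9.14 and 4.01 to 34.2 CPM in visceral and subcutaneous fat without it. The Myo1f interaction was 4.47 (edgeR adjusted p = 0.00429).

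Negative interactions included Hoxa10 and Fam174a. Hoxa10 without NaKtide was 0.383 to 14.2 CPM in visceral fat and 0.275 to 16.2 CPM in subcutaneous fat, and its interaction had an edgeR adjusted p of 0.00935, with no size given because of the 2 visceral counts with NaKtide. Fam174a, a small membrane protein, was 19.0 to 24.5 CPM in visceral fat and 25.9 to 40.7 CPM in subcutaneous fat with NaKtide, and 21.8 to 30.6 and 18.2 to 25.5 CPM in visceral and subcutaneous fat without it (interaction -0.92, edgeR adjusted p = 0.00743). These interactions rest on visceral libraries without NaKtide of which 3 held much male tract RNA. Their tract sum reached 43600 CPM, and without the 4 visceral control-diet libraries above 1000 CPM the interaction called 0 genes in edgeR, with 1866 at an unadjusted p under 0.05. Leaving out 1 library at a time gave 260 to 1056 calls, the highest without visceral replicate 1 with NaKtide and the lowest without subcutaneous replicate 5 with NaKtide.

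On Western diet (42% fat) the order of the visceral groups was the reverse, with the high levels in fat without NaKtide. Trem2 was 6.97 to 24.8 CPM in visceral fat on Western diet with NaKtide, against 33.5 to 143 CPM without it. Adam8 was 0.861 to 21.3 CPM with NaKtide and 46.1 to 143 CPM without it. Gpnmb was 8.54 to 94.9 CPM with NaKtide and 93.1 to 759 CPM without it. The median Spearman correlation over genes of visceral replicates 2 to 5 of the control diet with NaKtide was 0.919 to 0.933 to the Western diet visceral libraries with NaKtide, 0.967 to 0.980 to those without NaKtide and 0.774 to 0.813 to control-diet visceral libraries without NaKtide. The same replicates were also at 0.961 to 0.967 to the subcutaneous libraries on Western diet without NaKtide and at 0.953 to 0.966 to those with it. Subcutaneous libraries of the control diet with NaKtide were likewise low, at 0.744 to 0.814, to the control-diet visceral libraries without NaKtide. These correlations describe whole libraries and share depth and the genes of the tissue. Whether visceral groups of both diets carry each other's labels was not tested.

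Recurrence of the calls in the other states was counted, with no NaKtide on either diet and with NaKtide on Western diet. Of the 1072 genes higher in visceral fat, 352 were also called higher on control diet without NaKtide, where 19.9% of all genes were. On Western diet 22 were called higher with NaKtide (0.995% of all genes) and 139 without it (1.03%). Of the 1503 lower genes 496 were called lower on control diet without NaKtide, where 7.33% of all genes were. On Western diet 6 were called lower with NaKtide (1.44% of all genes) and 113 without it (1.05%). In both directions together 27.2%, 2.43% and 2.08% of genes were called in these 3 states, in the order control diet without NaKtide, Western diet with it and Western diet without it. The opposite direction was called for 81 of the higher and 4 of the lower genes on control diet without NaKtide, for 38 and 22 on Western diet with NaKtide, and for 0 and 0 on Western diet without it. On control diet without NaKtide the muscle genes summed to 9290 to 71000 CPM in the subcutaneous libraries. The male tract genes summed to 23 to 43600 CPM in the visceral ones. The part of these tissues in the recurrence was not tested. The libraries labelled replicate 1 of the Western diet with NaKtide carried the other depot's markers, with 25.8 CPM of Tbx15 in the one labelled visceral and 7.28 CPM of Wt1 in the one labelled subcutaneous. Called higher in all 4 states were Gjb5, a gap junction protein, and Fmod, and called lower were Grb14, Cyp2u1 and Gm13111. These counts name genes after their values were seen, and the 4 states share 1 estimate of spread.

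**Figure D5:**
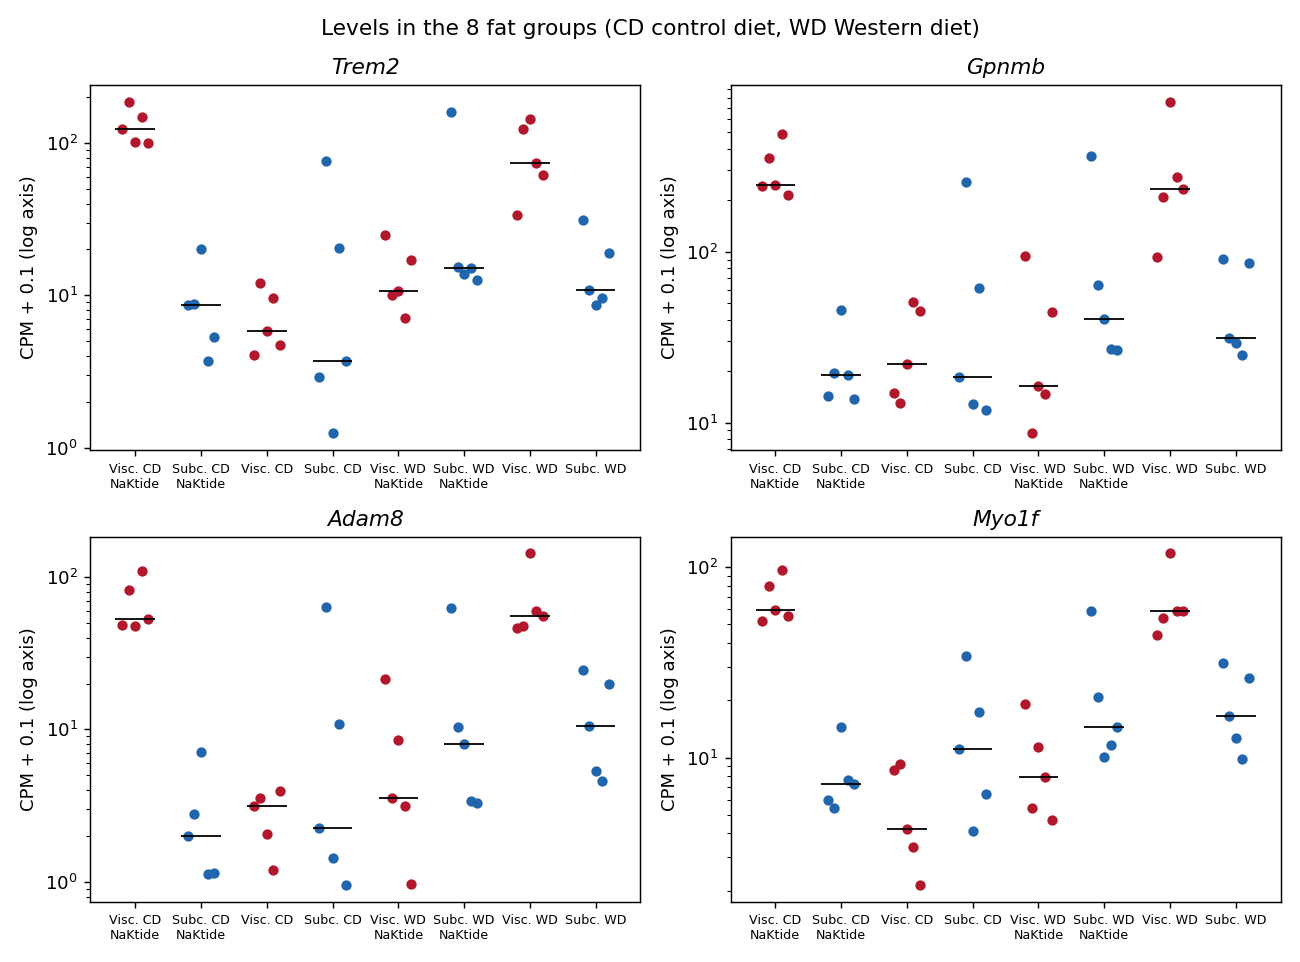
CPM + 0.1 (log axis) of Trem2, Gpnmb, Adam8 and Myo1f in the 8 fat groups, visceral in red and subcutaneous in blue; points are the 5 libraries of a group and lines their medians, with CD the control diet and WD the Western diet. The visceral libraries with NaKtide on control diet, 99.4 to 186 CPM for Trem2, lie above the subcutaneous ones and near the visceral libraries on Western diet without NaKtide.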

How the data were processed

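The authors deposited a table of raw counts for 54232 gene IDs in 60 libraries, whole numbers per the file headers. Per the submitters' processing notes, Trimmomatic 0.38, HISAT2 2.1.0 and DESeq2 1.20.0 were used with GRCm38. How reads were counted (program, annotation, strand) is not given in the sources used here. Deposited normalized and FPKM tables were not used. Of 83 genes whose depot difference is described, 33 overlap another gene of GENCODE M21 and 26 of these one on the other strand, so that their reads may not be told apart.

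The 40 fat libraries, of 8 groups with 5 each, were fitted with the quasi-likelihood test of edgeR 4.0.16 under R 4.3.3, after TMM normalization and removal of low-count genes by filterByExpr. The fit of all 8 groups shares 1 estimate of spread, a biological coefficient of variation of 0.558. Depth was 3.49 to 9.78 M counts per library. Bounds on folds use a floor of 3 counts over a group, and counting intervals are exact at 95%. Intervals and floors cover counting error only.

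The members, gene lists and tests were chosen with earlier results of these data known. Named genes were taken from the 12 largest rises and 12 largest falls called in both fits, averaging 5 CPM or more with groups that did not overlap, and without muscle, tract, skin and predicted genes. To them were added up to 3 rising and 3 falling members of each list, 5 genes per direction of the interaction and a fixed set. Names are a selection of these, and genes outside the rule are said to be chosen after their values were seen; some genes are not reported here. Alternatives were DESeq2 1.42.0, RLE factors, dropping the filter, limma 3.58.1 voom with quality weights, only the libraries compared, a replicate block and each library left out. Fits were tested on simulated data. No 2 libraries were duplicates.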

Additional observations from a re-analysis of the deposited data

Results flagged for a closer look

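The 83 genes in each depot made 166 groups of 5 libraries, and groups whose highest level was under 1 CPM were passed over. Of the rest, 31 had 1 library that lay far from the other 4 by Dixon's criterion. For normally distributed values chance flags about 1 group in 20, and the CPM used here were not transformed. Subcutaneous replicate 2 accounted for 12, subcutaneous replicate 3 for 11 and visceral replicate 1 for 5.

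Subcutaneous replicate 2, the library with the most muscle RNA, was the highest of its group for genes that muscle expresses. It read 13900 CPM of Pygm, 2940 of Ryr1, 1520 of Ckmt2, 1030 of Cox7a1, 1280 of Fxyd1, 328 of Atp1b2 and 307 of Tbx15. It was also the highest for the respiratory genes Sdhb at 779 CPM and Uqcrfs1 at 625 CPM. Low counts of visceral genes appeared there too, with 1.33 CPM each of Upk3b and Msln and 2.67 CPM of Col6a5.

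Subcutaneous replicate 3, with the least muscle RNA, was the highest of its group for genes that were higher in visceral fat. It read 45.3 CPM of Gpnmb, 10.5 of Slc37a2, 6.99 of Adam8, 23.5 of Cybb, 17.5 of P2ry6, 14.4 of Myo1f, 125 of H2-DMb1 and 82.2 of Saa3. The same library stood out for Nrip2 at 13.8 CPM, Gpr50 at 3.93 CPM and Col6a1 at 655 CPM. Its median Spearman correlation over genes was 0.970 to the visceral libraries of the same state and 0.950 to the other subcutaneous ones. Wt1 and Tcf21 were nevertheless at 0 in it.

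Visceral replicate 1 was the highest of its group for the epididymal genes Lcn5, at 1310 CPM, and Adam7, at 974 CPM, and for Ckmt2 at 1.19 CPM. It was the lowest for Lep at 1970 CPM and Fgr at 5.11 CPM. Visceral replicate 4 was the lowest for Tcf21 at 1.10 CPM and the highest for Col6a5 at 93.3 CPM. Subcutaneous replicate 1 held nearly all of the Ucp1 signal of its group, at 4.46 CPM.

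The depot difference itself differed between mice with and without NaKtide on control diet for the 7 genes listed here, by the interaction test of edgeR. Other named genes also passed this test, among them Gpnmb, Mpeg1, Gsta4 and Hoxa10 (edgeR adjusted p = 0.0107, 0.00719, 0.00905 and 0.00935). On the log2 scale the difference with NaKtide minus that without was 5.33 for Trem2, 4.47 for Myo1f, 3.22 for Btk, 3.2 for Fermt3, 3.16 for Lrrc25, 2.97 for P2ry6 and -0.92 for Fam174a. None of the 7 passed the threshold without the 4 visceral libraries rich in male tract RNA.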

How the results depend on the processing

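The depot comparison called 2575 genes, against 2576 with RLE scaling and 3728 with DESeq2. It called 1616 with no filter on low counts, 5992 with voom and quality weights, 1522 from the 10 libraries alone and 1014 without visceral replicate 1 and subcutaneous replicate 2. It called 7 without 4 libraries of muscle or epididymis, a choice made after seeing the data. Leaving out 1 library at a time gave 1279 to 3233 calls. The fits that leave out libraries also held fewer samples. The cause of these shifts was not tested.

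The interaction called 290 genes with no filter, 1034 with DESeq2, 1120 with voom, 172 from its own libraries alone, 990 without visceral replicate 1 and subcutaneous replicate 2 and 0 without the 4 visceral libraries rich in male tract RNA (added). Leaving out 1 library gave 260 to 1056 calls.

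Whether replicate numbers pair the depots cannot be told from these data. The deviations of same-numbered libraries correlated at -0.065 to 0.091, with 0 of 5 pairs over 0.1. Muscle or male tract RNA in single libraries could hide a shared mouse in such correlations. With the replicate block 1239 depot genes and 346 interaction genes were called, and 13 named depot genes missed the threshold, among them Wt1 (adjusted p = 0.130), Tcf21 (0.0663) and Bnc1 (0.152).

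Ucp1 turned to 2.23 without subcutaneous replicate 1 and to 4.29 without the 4 libraries, and ranged from -2.06 to 2.23 over the single omissions. Of 77 named genes called between the depots, 68 passed the threshold without each of the 10 libraries in turn. Part of these names were picked as called in the reduced fit without overlap, so keeping the call was partly set by that choice. Without the 4 libraries of muscle or epididymis, 73 named genes lost their call, in a fit with fewer samples. No list median moved by 1 SD or more under RLE scaling, over 60 medians. Among named genes Src lost its call with no filter, Saa3, Atp1b2, Fxyd1 and Lcn5 from the 10 libraries alone, Atp1b2, Lcn5 and Adam7 with voom, and 8 genes without visceral replicate 1 and subcutaneous replicate 2. Voom added Gata6, Adipoq, Lep and Retn. The Fam174a interaction lost its call with no filter and with voom. Depth limits statements on genes near 0 counts.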
